A study of Mus musculus with 12 samples.

Results

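The nuclear pore genes of the fully grown mouse oocyte were followed through 12 poly(A) RNA-seq libraries, each made from a single oocyte or a fraction of 1. Members were the protein-coding genes of GENCODE M21 whose symbol begins with Nup and a digit, together with Nupl2, Ndc1, Aaas, Tpr, Rae1, Sec13, Seh1l, Pom121, Ranbp2, Ahctf1, Gle1 and Tmem33. The rule found 33 genes of the 55573 genes that were counted, of which 21903 are protein-coding, and each of the 33 had a value in all 12 libraries. Nup58, a channel nucleoporin, is named Nupl1 in that annotation and fell outside the rule.

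Nuclear pore complexes are the channels of the nuclear envelope through which transport receptors carry proteins and mRNA. Nucleoporins of the outer and inner rings form the scaffold, transmembrane nucleoporins anchor it, and nucleoporins rich in phenylalanine-glycine (FG) repeats line the channel and bind the receptors. In a germinal vesicle (GV) oocyte, which is arrested in meiotic prophase, the envelope of the large nucleus is intact, and it comes apart with its pores when meiosis resumes.

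All oocytes came from B6D2F1 mice, a single female 12 weeks of age, and were held in M2 medium with milrinone, a phosphodiesterase inhibitor that keeps the arrest. Of 8 oocytes, 6 were sequenced whole, 2 each after 10, 14 and 18 cycles of cDNA amplification, and 2 were lysed and diluted to 1/2, 1/4 and 1/8 of a cell, which were amplified for 18 cycles. The 6 groups thus hold 2 libraries each, and the 6 fraction libraries come from 2 oocytes. The comparisons ask how cycle number and input bear on measured levels and on scaling by ERCC, synthetic RNAs added to every lysate in an equal amount.

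Counts on genes ranged from 1702062 in a 1/8 library to 13806199 in a library at 14 cycles. Whole oocytes gave 11597144 and 9189672 at 10 cycles, 12349577 and 13806199 at 14, then 3017069 and 1706478 at 18 cycles. The fractions gave 4024670 and 3598549 (1/2), 4027907 and 5049518 (1/4), then 11404262 and 1702062 (1/8). Levels are counts per 1000000 gene counts (CPM) in replicates 1 and 2, in that order. With 1 animal, p-values measure the spread between oocytes or preparations, which may be technical. Since each cycle number was applied to its own oocytes, the effects of oocyte, preparation and number of cycles cannot be told apart. The fractions came from other oocytes than the whole libraries, so in those comparisons input, oocyte and preparation cannot be told apart either. Reads were counted without molecular identifiers, so floors cover counting error only.

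The oocyte label was checked on 10 oocyte genes, and each of the 10 had at least 5 counts in all 12 libraries. Gdf9, an oocyte growth factor, had the highest CPM of the 10 in every library. The summed CPM of the 10 was 22841 and 20326 at 10 cycles, 22853 and 23905 at 14 cycles, 6733 and 5497 at 18 cycles, 7325 and 7815 in 1/2, 11975 and 12129 in 1/4, then 17307 and 16623 in 1/8. Of 10 granulosa or cumulus genes the sum was 88.2 and 46.1 at 10 cycles, 61.0 and 98.7 at 14 cycles, 40.1 and 11.7 at 18 cycles, 14.7 and 16.1 in 1/2, 33.3 and 32.7 in 1/4, then 46.0 and 42.9 in 1/8. Cyp19a1 or Inha led that list in each library, and Ptx3, a cumulus matrix gene, had 1 count over the 12 libraries. Inha differed between whole oocytes, with 34.1 and 0.326 CPM at 10 cycles, 3.64 and 31.9 at 14, and 17.2 and 0.586 at 18. Cyp19a1 replicates lay closer, at 27.5 and 32.6, 38.1 and 46.1, and 5.97 and 7.62 CPM in the same order. Of 6 blood genes the sum was at most 3.71 CPM, Hba-a1 was at 0 in all 12 libraries, and all 6 were at 0 in 18-cycle replicate 2 and in the 6 fractions.

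Of the 33 members, 32 reached 5 counts in 2 or more libraries. Nup62cl, a relative of the channel nucleoporin Nup62, did not, with 8 counts over 12 libraries and 81473107 gene counts. Summed over members, the level was 4748 and 4379 CPM at 10 cycles, 4489.7 and 4495 at 14 cycles, 3811 and 4103 at 18 cycles, 3699.9 and 4093 in 1/2, 4078 and 4231 in 1/4, then 4503 and 4638 in 1/8. Both whole libraries at 18 cycles lay below the 4 at 10 and 14 cycles and below both 1/8 libraries, and inside the range of the 1/2 and 1/4 libraries. As a share of gene counts the sum ran from 0.370% to 0.475%.

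Levels of different genes were compared as CPM per kilobase of exon, at 10 cycles. Per kilobase, Rae1, which carries mRNA export factors to the pore, stood at 70.2 and 58.2 (64.2 ± 8.45, SD, n = 2), and Sec13, shared by the Y complex and the COPII coat, at 67.6 and 55.7 (61.7 ± 8.41). Nup62, the core of the channel, stood at 54.3 and 60.0 CPM per kilobase (57.2 ± 4.02). At the low end on the same scale were Nupl2, an FG nucleoporin that binds Gle1, at 2.36 and 1.24 (1.80 ± 0.789), the transmembrane Nup210 at 1.00 and 0.831 (0.918 ± 0.122), and its relative Nup210l at 0.301 and 0.285 (0.293 ± 0.0114). Of the 31 neighbouring pairs in this order, 18 overlapped in their replicate ranges and 13 did not, and the leading neighbours Rae1, Sec13 and Nup62 did overlap. With the longest transcript as the length, Sec13 led at 123 CPM per kilobase, before Rae1 at 94.2, and Nup62 came 10th at 59.9. The 14182 protein-coding genes with at least 5 counts in 2 or more of the 12 libraries were ranked per kilobase at 10 cycles. Among them the members' median percentile was 82.3, with 28 members above the 50th and 8 above the 90th.

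**Figure D1:**
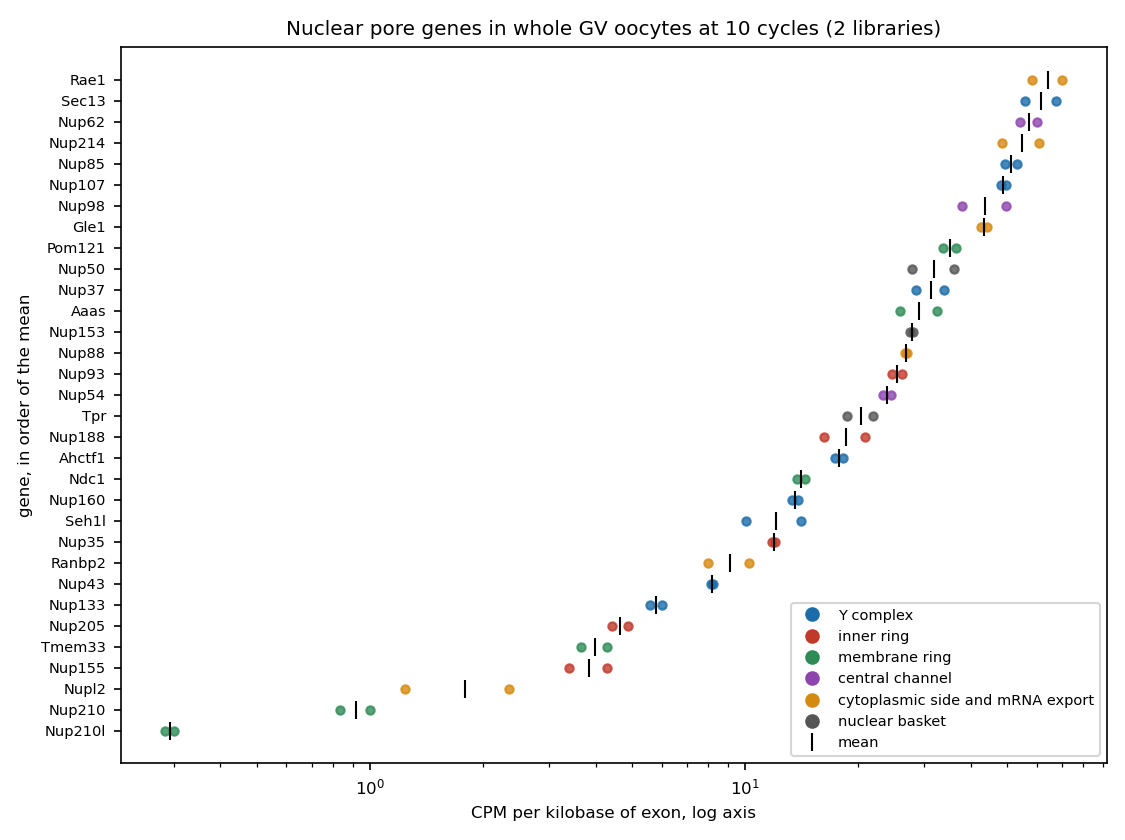
CPM per kilobase of exon (log axis) for the 32 members that reached 5 counts in 2 or more libraries, in the 2 whole oocytes at 10 cycles (points) with their mean (bars), coloured by role. The means run from 0.293 for Nup210l to 64.2 for Rae1, and most neighbours overlap.

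By role, the 9 Y complex genes of the outer ring had a median of 17.9 CPM per kilobase at 10 cycles, from 5.79 for Nup133 to 61.7 for Sec13. The 5 inner ring genes had a median of 11.9 CPM per kilobase, from 3.85 for Nup155 to 25.5 for Nup93. The 6 genes of the membrane ring had 9.04 CPM per kilobase, from 0.293 for Nup210l to 35.2 for Pom121, which anchors the pore in the membrane. On the same scale, the 3 channel genes that were measured ran from 24.0 for Nup54 to 57.2 for Nup62, with Nup98 at 43.8. The 6 genes of the cytoplasmic side and mRNA export had a median of 35.2 CPM per kilobase, from 1.80 for Nupl2 to 64.2 for Rae1. The 3 nuclear basket genes ran from 20.4 for Tpr, the filament of the basket, to 32.0 CPM per kilobase for Nup50, an import cofactor.

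Among the scarce members, Nupl2 had 8.88 and 4.68 CPM at 10 cycles, 7.69 and 11.2 at 14 cycles, 16.6 and 14.7 at 18 cycles, 8.94 and 10.8 in 1/2, 15.4 and 12.3 in 1/4, then 14.6 and 12.3 in 1/8. The whole libraries at 18 cycles were above the 4 at 10 and 14 cycles, yet edgeR did not call the gene at 18 against 10 cycles (1.47 ± 0.42, log2; adjusted p = 0.0190), while it was among the 5 called higher by DESeq2 and the 5 with no filter (2708 and 2703 of all genes). Nup210 had 10.5 and 8.71 CPM at 10 cycles, 7.13 and 8.47 at 14, 11.3 and 6.45 at 18, 1.99 and 5.28 in 1/2, 4.72 and 5.15 in 1/4, then 11.1 and 5.29 in 1/8, and the range at 18 cycles took in those at 10 and 14 cycles. Nup210l had 1.72 and 1.63 CPM at 10 cycles, 1.94 and 1.81 at 14 and 0.663 and 0 at 18 cycles. It had 0 counts of 7623219 in the 1/2 fractions and 0 of 13106324 in the 1/8 fractions, and 3 counts in the 1/4 fractions. At 10 cycles it had 35 counts of 20786816 (1.68 CPM), and a floor of 3 counts over the pooled group is 0.394 CPM in 1/2 and 0.229 CPM in 1/8. Such a floor covers counting error only, and 11404262 of the 1/8 gene counts came from replicate 1, so no fold difference is drawn from it. In the fits of the fractions against 10 cycles Nup210l passed the filter only through its counts at 10 cycles. These fixed its direction, so its test there is not read.

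Across the 12 libraries the highest CPM of a member was a median of 2.49 times its lowest (31 members with a value above 0 in each), and 8 members stayed under 2. The steadiest was Nup85, a Y complex subunit, at 1.34, with 167 and 179.9 CPM at 10 cycles, 162 and 186 at 18 cycles, then 168 and 189 in 1/8. Nup214, the large FG nucleoporin of the cytoplasmic face, followed at 1.56, and Sec13 at 1.64. Sec13 had 215 and 177 CPM at 10 cycles, 203 and 233 at 14, 186 and 151 at 18, 227 and 200.1 in 1/2, 173 and 195 in 1/4, then 237 and 144 in 1/8, with every group overlapping at least 1 other. The widest ratios were those of Nup35 at 7.36, Nup43 at 6.77 and Nup210 at 5.67. Within the 4 libraries at 10 and 14 cycles the median ratio was 1.28, and 29 of 32 members stayed under 1.5. Across the 32 members that passed the filter, the correlation of log2(CPM + 1) with the mean of the 10-cycle libraries was 0.989 and 0.990 at 14 cycles, 0.885 and 0.894 at 18 cycles, 0.920 and 0.945 in 1/2, 0.951 and 0.952 in 1/4, then 0.964 and 0.959 in 1/8. These values describe genes, which are not independent replicates, and all share the 10-cycle reference and each gene's own length and base composition.

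Between 10 and 14 cycles, 0 of 32 members were called by edgeR, against 0% of 17532 genes lower and 0% higher. A gene is called when edgeR's quasi-likelihood test, adjusted over all genes tested, gives p under 0.01, with counts scaled by the median ratio of all genes unless ERCC is named. At an unadjusted p under 0.05, edgeR gave 0 members lower and 1 higher, beside 237 and 276 of all genes, and DESeq2 called 0 members. The median log2 fold change of the 32 members was -0.01, and of all genes 0.01. The largest was that of Seh1l, a Y complex subunit, at 0.62 ± 0.22 (SE; edgeR adjusted p = 1.000).

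Between 10 and 18 cycles, edgeR called 5 of 32 members lower (10.8% of all 17532 genes) and 3 higher (12.3%). Lower were Nup35, Nup155 and Nup205 of the inner ring, Nup43 of the Y complex and Aaas of the membrane ring, and higher were Pom121 of the membrane ring, the channel protein Nup62 and the export factor Rae1. With ERCC scaling none of the 5 was lower, where all genes shifted by a median of 1.96 (log2), and the called split turned to 0 lower and 24 higher, against 0% and 47.6% of all genes. With that scaling 0 members were lower also at an unadjusted p under 0.05, beside 56 of all genes, and by DESeq2, beside 0. By the median ratio, among genes averaging at least 50 normalized counts, a limit chosen after seeing the data, 5 of 31 members were lower (16.1%, beside 18.2% of all such genes) and 3 higher (9.68%, beside 21.1%). The median log2 fold change was -0.31 for members and -0.29 for all genes, and -0.30 and 0.02 among those averaging at least 50 normalized counts.

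Nup35, a membrane-binding subunit of the inner ring, had 39.8 and 40.5 CPM at 10 cycles, 35.9 and 41.5 at 14 and 6.63 and 9.96 at 18 cycles. The fractions of an oocyte gave 23.1 and 19.7 (1/2), 17.4 and 24.0 (1/4) and 39.3 and 48.8 (1/8). Both whole libraries at 18 cycles lay below all the others, and those of 1/8 lay within or above the range at 10 and 14 cycles. The log2 fold change of 18 against 10 cycles was -2.06 ± 0.32 (SE, n = 2 against 2; edgeR adjusted p = 0.000777), lower in 2 of 2 libraries, and it stood at 0.15 with ERCC scaling and -1.81 relative to the shift of all genes. Nup155, a scaffold protein of the same ring, had 51.3 and 40.7 CPM at 10 cycles, 38.3 and 44.3 at 14 and 17.6 and 16.4 at 18 cycles. Nup205, a large scaffold protein, had 45.4 and 41.2, 47.5 and 40.9, and 19.6 and 11.7 CPM in the same order. In the fractions Nup155 had 22.1 and 23.6 (1/2), 26.3 and 27.7 (1/4) and 32.4 and 39.4 CPM (1/8), and Nup205 11.7 and 18.3, 32.3 and 15.2 and 20.9 and 25.9. Neither gene overlapped between 18 cycles and the lower cycle numbers, and edgeR gave log2 fold changes of -1.17 ± 0.26 (adjusted p = 0.00543) for Nup155 and -1.18 ± 0.28 (adjusted p = 0.00739) for Nup205. Nup188 and Nup93, the other inner ring genes, were not called (-0.26 ± 0.22 and -0.16 ± 0.23, log2). With ERCC scaling Nup155 and Nup205 stood at 1.09 and 1.11.

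Of the 9 Y complex genes, Nup43 alone was called at 18 against 10 cycles. Nup43, a WD-repeat subunit, had 20.9 and 21.002 CPM at 10 cycles, 25.02 and 21.3 at 14 cycles, 5.63 and 4.69 at 18 cycles, 7.45 and 8.06 in 1/2, 7.94 and 10.1 in 1/4, then 23.4 and 31.7 in 1/8. The whole libraries at 18 cycles were the lowest of the 12 and did not overlap with those at 10 cycles, and edgeR gave -1.75 ± 0.35 (log2; adjusted p = 0.00303), or 0.51 with ERCC scaling. The median log2 fold change of the Y complex genes was -0.44. Aaas, the aladin protein that binds the transmembrane Ndc1, had 91.2 and 72.4 CPM at 10 cycles, 90.04 and 101 at 14, 26.2 and 22.9 at 18, 67.1 and 57.2 in 1/2, 64.1 and 83.0 in 1/4, then 87.6 and 51.1 in 1/8. It too was lowest in the whole libraries at 18 cycles, with no overlap, and its log2 fold change was -1.47 ± 0.22 (edgeR adjusted p = 0.000687), or 0.80 with ERCC scaling and -1.16 relative to all genes.

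Pom121 had 188 and 204 CPM at 10 cycles, 144 and 128 at 14 and 367 and 592 at 18 cycles. The fractions gave 212 and 405 (1/2), 258 and 279 (1/4) and 178 and 149.8 (1/8). The 18-cycle whole libraries lay above every library at 10 and 14 cycles and both 1/8 libraries, while 1/2 replicate 2 fell between them. The log2 fold change of 18 against 10 cycles was 1.57 ± 0.28 (edgeR adjusted p = 0.00146; higher in 2 of 2), 3.69 with ERCC scaling and 1.73 relative to all genes. Per kilobase, Pom121 was 9th of the members at 10 cycles, 3rd at 18 cycles and 13th in 1/8. Nup62 had 155 and 171 CPM at 10 cycles, 149.97 and 157 at 14, 300.3 and 315 at 18, 208 and 206 in 1/2, 232 and 245 in 1/4, then 162 and 153 in 1/8. The 18-cycle whole libraries were the highest of the 12, those of the 1/2 and 1/4 fractions came next, and edgeR gave 1.18 ± 0.20 (log2; adjusted p = 0.00112). Rae1 had 179 and 149 CPM at 10 cycles, 200.2 and 178 at 14, 310.2 and 400.2 at 18, 294 and 263 in 1/2, 297 and 273 in 1/4, then 282 and 239 in 1/8. Again the 18-cycle whole libraries were the highest of the 12, and all 6 fractions lay above the 4 libraries at 10 and 14 cycles (1.39 ± 0.23 for 18 against 10 cycles, log2; edgeR adjusted p = 0.00102).

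In this comparison Aaas and Nup35 kept their call whichever of the 6 whole libraries was left out. Without 10-cycle replicate 1 they were the only 2 members called, and without 10-cycle replicate 2 Nup62 joined them. Nup155 and Nup205 were lost without 14-cycle replicate 1, without 14-cycle replicate 2 and without 18-cycle replicate 2, where Ahctf1 and Nup153 were gained in the last, and without 18-cycle replicate 1 Nup155 and Nup43 were lost and Nup37 was gained. With only the libraries at 10 and 18 cycles in the fit, Nup155, Nup205 and Nup43 lost their call. With all 3 groups of whole oocytes in the fit, DESeq2 called 8 lower and 5 higher, beside 2381 and 2708 of all genes.

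Against 14 cycles, with the 18-cycle libraries shared with the comparison above, edgeR called 5 of 32 members lower (10.7% of all genes) and 4 higher (12.5%). With ERCC scaling, which shifted all genes by a median of 1.97 (log2), the split was 0 lower and 25 higher, against 0.0114% and 47.9% of all genes. With that scaling 0 members were lower at an unadjusted p under 0.05, beside 59 of all genes, and by DESeq2, beside 1. By the median ratio the called members were as follows. Nup35 stood at -1.97 ± 0.32, Nup43 at -1.86 ± 0.35, Aaas at -1.66 ± 0.22 and Nup205 at -1.18 ± 0.28 (log2). Nup155 was not called (-0.98 ± 0.26; edgeR adjusted p = 0.0131). DESeq2 and TMM scaling did call it, each with 6 members lower, beside 2331 and 2094 of all genes. It was also called with at least 10 counts in every library (8 members lower, beside 2011 of 9073 genes). Pom121 stood at 2.14 ± 0.28, Nup62 at 1.30 ± 0.20 and Rae1 at 1.22 ± 0.23. The other 2 called genes, named after their values were seen, were Nup37 and Nup50. Nup37, a Y complex subunit, had 113 and 95.2 CPM at 10 cycles, 117 and 122 at 14 and 58.0 and 28.1 at 18 cycles, with no overlap (-1.17 ± 0.26, log2; edgeR adjusted p = 0.00600). Nup50 had 130.1 and 130.2 CPM at 14 and 228 and 225 at 18 cycles, with no overlap (1.10 ± 0.21; edgeR adjusted p = 0.00248). Without 14-cycle replicate 1 Aaas, Nup35 and Pom121 kept their call, without 14-cycle replicate 2 Aaas and Pom121 did, without either 10-cycle library or 18-cycle replicate 2 Nup205 and Nup37 were lost, Nup153 being gained in the last, and without 18-cycle replicate 1 Nup43 was lost and Nup133 gained.

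**Figure D2:**
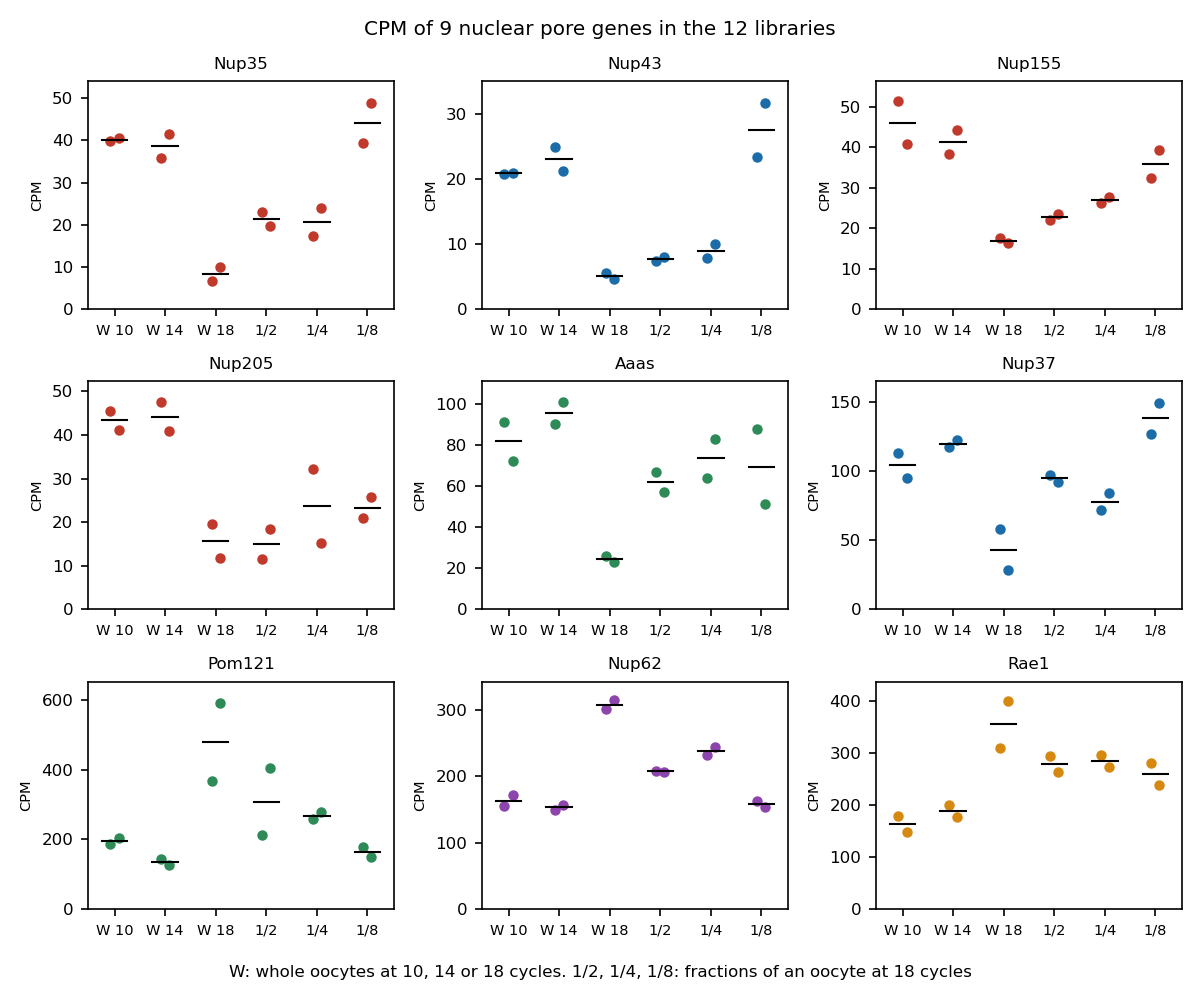
CPM of 9 members in each of the 12 libraries (points) with the group mean (bars), for whole oocytes at 10, 14 and 18 cycles (W) and for the 1/2, 1/4 and 1/8 fractions at 18 cycles. Nup35 falls to 6.63 and 9.96 CPM in the whole libraries at 18 cycles against 39.3 and 48.8 in 1/8, and Pom121 runs the other way on this scale, while ERCC scaling puts both genes lower in 1/8.

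Fractions were compared with whole oocytes at 18 cycles, the 2 libraries that also entered the cycle comparisons. The labels do not say which fraction libraries share an oocyte, so all entered the fit as independent libraries. In 1/2, edgeR called 0 of 31 members lower (0.0406% of 14788 genes) and 0 higher (0.0811%), with 2 lower and 3 higher at an unadjusted p under 0.05, beside 978 and 965 of all genes. DESeq2 called 0 members there, beside 48 and 85 of all genes. The log2 fold changes ran from -1.35 ± 0.68 for Nup210 to 1.31 ± 0.35 for Aaas and 1.36 ± 0.44 for Nup35. In 1/4, edgeR called 0 members lower (0.426%) and 0 higher (0.0338%), with 1 lower and 5 higher at an unadjusted p under 0.05, beside 1253 and 1078 of all genes. DESeq2 called 0 lower and 1 higher, beside 170 and 69 of all genes, and the 1 was Aaas, which edgeR placed at 1.44 ± 0.35 (log2; adjusted p = 0.0405). The members' median log2 fold change was -0.01 in both fractions, and that of all genes -0.01 in 1/2 and 0.05 in 1/4.

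In 1/8, edgeR called 2 of 31 members lower (8.69% of all genes) and 5 higher (7.06%) than in whole oocytes, whereas with ERCC scaling all 31 were lower, after a shift of all genes of -4.92 (log2). Higher by the median ratio were Nup35, 3 Y complex genes (Nup43, Nup37 and Ahctf1) and Aaas, and lower were Pom121 and Nup62. Nup35 stood at 2.23 ± 0.44 (log2; edgeR adjusted p = 0.000762), at -2.69 with ERCC scaling and at 2.23 relative to the shift of all genes. Nup43, named after its values were seen because it averaged under 50 normalized counts, stood at 2.19 ± 0.51 (edgeR adjusted p = 0.00310). Nup37 had 58.0 and 28.1 CPM in whole oocytes, then 127 and 149 in 1/8, with the 1/2 (97.4 and 91.7) and 1/4 (71.7 and 84.0) libraries between them. Its log2 fold change in 1/8 was 1.47 ± 0.33 (edgeR adjusted p = 0.00204), with no overlap between the groups. Ahctf1 (ELYS), which brings the Y complex to chromatin, had 263 and 276 CPM at 10 cycles, 271 and 237 at 14, 127 and 173 at 18, 152 and 206 in 1/2, 296 and 271 in 1/4, then 304 and 438 in 1/8. The 1/8 libraries were both above the whole ones at 18 cycles (1.10 ± 0.30, log2; edgeR adjusted p = 0.00898), and Aaas was likewise (1.32 ± 0.35; edgeR adjusted p = 0.00745).

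Pom121 in 1/8 stood at -1.76 ± 0.33 (log2; edgeR adjusted p = 0.000479) and Nup62 at -1.17 ± 0.27 (edgeR adjusted p = 0.00261), both lower with ERCC scaling too, at -6.62 and -6.10. Relative to the shift of all genes these were -1.69 and -1.18. The median log2 fold change was 0.21 for members and 0.03 for all genes, and 0.23 and -0.12 among those averaging at least 50 normalized counts. In that set, 2 of 28 members were lower (14.4% of all such genes) and 4 higher (11.7%). Gene counts were 1702062 in 1/8 replicate 2 and 1706478 in 18-cycle replicate 2, and in these libraries Nup35 had 48.8 against 9.96 CPM and Pom121 149.8 against 592 CPM. Without 18-cycle replicate 1 Nup37, Nup62 and Pom121 kept their call, without 18-cycle replicate 2 Ahctf1 and Nup35 did, without 1/8 replicate 1 Aaas and Nup62 were lost, without 1/8 replicate 2 Aaas, Nup35 and Pom121 were kept, and without any of the 1/2 or 1/4 libraries Aaas and Ahctf1 were lost.

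**Figure D3:**
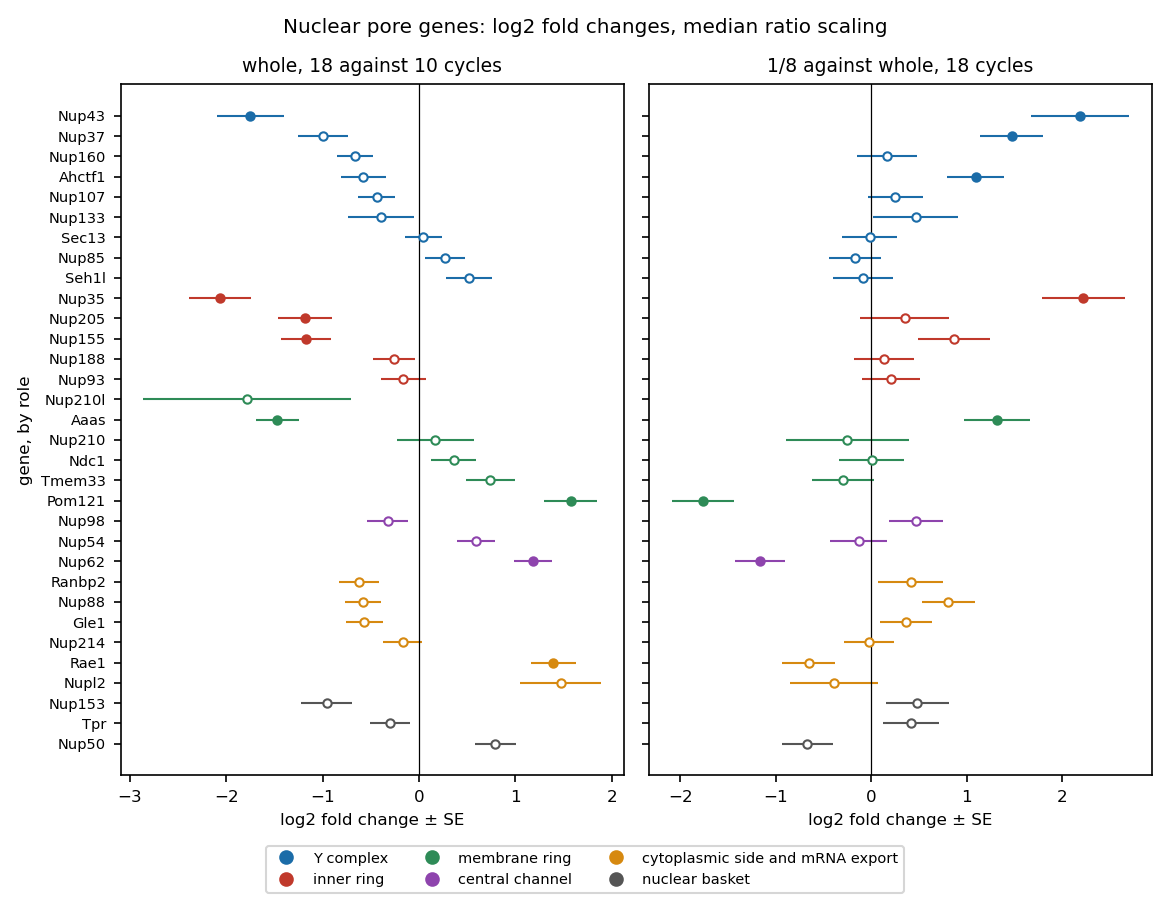
Log2 fold changes with median ratio scaling (points, with SE as bars) of the members for 18 against 10 cycles in whole oocytes (left, 32 members) and for 1/8 against whole oocytes at 18 cycles (right, 31 members), coloured by role and filled where edgeR called them. Both comparisons use the whole libraries at 18 cycles, and Nup35 stands at -2.06 on the left and 2.23 on the right, where ERCC scaling puts it at 0.15 and -2.69.

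The fractions were also set against the whole oocytes at 10 cycles, which differ from them in cycle number as well. In 1/8, edgeR then called 0 of 32 members lower (0% of 16582 genes) and 0 higher (0%). Apart from Nup210l, 1 member was lower and 2 higher at an unadjusted p under 0.05, beside 1075 and 839 of all genes. The 32 members count Nup210l, whose direction the filter fixed. DESeq2 was not run with that reference. In 1/2, 1 of 32 members was lower (6.40%) and 3 higher (9.98%), and in 1/4, 0 were lower (3.94%) and 1 higher (6.19%). At an unadjusted p under 0.05, 5 members were lower and 5 higher in 1/4, beside 2571 and 2767 of all genes. Named after their values were seen, the called members were Gle1, which activates the export helicase at the pore, at -1.01 (log2) in 1/2, the channel protein Nup54 at 0.97, the reticulum and pore membrane protein Tmem33 at 1.33, and Rae1 at 1.04 in 1/2 and 0.95 in 1/4. Gle1 had 269 and 260.0 CPM at 10 cycles and 106 and 112 in 1/2, and Tmem33 had 38.5 and 32.9 and 77.3 and 71.4, with no overlap for either gene.

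With ERCC scaling, which refers counts to the amount of added RNA, 26 of 31 members were lower in 1/2 (52.0% of all genes), 29 in 1/4 (69.7%) and 31 in 1/8 (87.5%), and 0 were higher (0% in each), at an unadjusted p under 0.05 and by DESeq2 too. The 5 members not called in 1/2 were Nup155, Nup35, Nup37, Aaas and Nup43, and the 2 in 1/4 were Nup35 and Aaas. The members' median log2 fold change was -1.94 in 1/2, -2.77 in 1/4 and -4.69 in 1/8, beside -2.0, -2.69 and -4.92 for all genes. Gene counts per ERCC count were 1873 and 1158 in whole oocytes at 18 cycles, 439 and 344 in 1/2, 214 and 174 in 1/4, then 49.3 and 46.5 in 1/8. At 10 cycles they were 324 and 360.0, and at 14 cycles 347 and 354. The whole oocytes at 18 cycles, the reference of these calls, thus lay above the whole oocytes at 10 and 14 cycles. On this measure 1/2 replicate 1 lay above the libraries at 10 and 14 cycles and 1/2 replicate 2 within their range. No fit with ERCC scaling set the fractions against 10 cycles. Between 10 and 14 cycles edgeR called 0 members lower (0%) and 0 higher (0%) with ERCC scaling, and DESeq2 called 0. At an unadjusted p under 0.05 the members gave 0 and 0, beside 117 and 124 of all genes. Single libraries moved some of these counts, with 10 members lower in 1/2 without 18-cycle replicate 1 and 6 without 1/2 replicate 2, beside 3081 and 1930 of all genes against 7697 with all libraries. The 24 higher at 18 against 10 cycles became 14 without 10-cycle replicate 1 and 13 without 10-cycle replicate 2, beside 4526 and 5116 of all genes against 8348. The 25 higher at 18 against 14 cycles became 13 without 14-cycle replicate 1 and 12 without 14-cycle replicate 2, beside 5662 and 5449 of all genes against 8398.

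Genes that work with the pore were counted in lists of importins, exportins, the Ran cycle, mRNA export, the nuclear lamina with its inner membrane proteins, and the LINC complex, 55 genes in all. At 18 against 10 cycles edgeR called 5 of the 55 lower and 9 higher, beside 10.8% and 12.3% of all genes, with a median log2 fold change of 0.21. Lamina and inner membrane genes gave 5 of the 9, with Lmnb1, the B-type lamin, at 48.0 and 36.2 CPM at 10 cycles, 36.4 and 40.5 at 14, 227 and 298 at 18 cycles, then 48.2 and 37.6 in 1/8. Tmpo, a lamin-binding membrane protein, had 80.7 and 72.4, 87.9 and 78.7, 371 and 399.7 and 60.2 and 70.5 CPM in the same groups. In 1/2 and 1/4 Lmnb1 had 124 and 240.1, then 214 and 159 CPM, and Tmpo 162 and 234, then 316 and 193. Both genes were higher in the whole libraries at 18 cycles than at 10 or 14 cycles or in 1/8, and for Lmnb1 1/2 replicate 2 lay between the whole libraries, with log2 fold changes of 2.92 and 2.60 against 10 cycles by the median ratio and 5.11 and 4.82 with ERCC scaling. Importins of the beta family gave 0 of 11 in either direction, importin alpha 1 of 6 lower (Kpna7 at -1.10), exportins 2 of 7 lower (Xpo1 at -1.35, Cse1l at -1.08), the Ran cycle 1 of 7 higher (Ranbp1 at 1.84), mRNA export 1 lower (Eny2 at -1.80) and 3 higher of 10, and LINC 1 of 5 lower (Syne1 at -2.09). With ERCC scaling 0 genes of these lists were called lower at 18 against 10 cycles, and Kpna7, Xpo1, Cse1l, Eny2 and Syne1 stood at 1.09, 0.86, 1.19, 0.41 and 0.22 (log2, none called). That scaling called higher 3 of 6 importin alpha, 9 of 11 importin beta, 5 of 7 exportin and 6 of 7 Ran cycle genes. Higher too were 8 of 10 mRNA export, 8 of 9 lamina and 4 of 5 LINC genes, beside 47.6% of all genes. In 1/8 against whole, 6 of 54 were lower and 1 higher (8.69% and 7.06% of all genes), or 54 lower with ERCC scaling (87.5%), and the lamina list gave 4 of the 6 lower, with Lmnb1 at -2.80 and Tmpo at -2.77. These 2 comparisons share the whole libraries at 18 cycles. At 18 against 14 cycles the lists gave 6 lower and 9 higher of 55 (10.7% and 12.5% of all genes), and in 1/4 1 lower of 54 (0.426%), Alyref, an mRNA export adaptor, at -2.65, named after its value was seen. With ERCC scaling the list order is importin alpha, importin beta, exportins, Ran cycle, mRNA export, lamina and LINC. At 18 against 14 cycles 3, 9, 5, 6, 9, 8 and 4 were then higher and 0 lower, beside 47.9% and 0.0114% of all genes. In 1/4, 4, 11, 6, 6, 10, 8 and 4 were lower and 0 higher, beside 69.7% and 0% of all genes. The oocyte genes gave 8 of 10 lower and 0 higher at 18 against 10 cycles, and 0 lower and 6 higher in 1/8, while ERCC scaling turned these to 0 lower and 3 higher and to 10 lower and 0 higher, and their part in the members' values was not tested.

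Members differ in base composition, which the rule did not use. GC content was taken over the longest transcript of each gene. At 18 against 10 cycles its median was 43.2% for the 5 members called lower, 57.4% for the 3 called higher and 47.6% for those not called. In 1/8 it was 57.5% for the 2 called lower, 43.3% for the 5 called higher and 48.0% for the others. Across members, Pearson's r of log2 fold change with GC was 0.40 at 18 against 10 cycles (32 genes) and -0.55 in 1/8 (31 genes), beside 0.42 (9692 genes) and -0.46 (7842 genes) over genes averaging at least 50 normalized counts. The points share the whole libraries at 18 cycles, and genes are not independent replicates, so these are descriptions. Over the coding sequence GC was 61.5% for Pom121, 46.5% for Nup35, 46.5% for Nup43 and 46.9% for Nup155, and the other called members at 18 against 10 cycles had 58.5% (Nup62), 48.9% (Nup205), 54.5% (Aaas) and 49.3% (Rae1). Over the longest transcript, the scale of the medians and r above, Aaas had 53.0% and Rae1 53.7%. To show what such shares look like, a window of 90 coding bases with the GC closest to that of the gene's coding sequence is given for Pom121, Nup35, Nup43 and Nup155, from GENCODE M21 transcripts on GRCm38, with G and C in capitals. Each lies in a single coding exon, Pom121 at chr5:135386851-135386940 (minus strand, 61.1% GC), Nup35 at chr2:80642627-80642716, Nup43 at chr10:7670969-7671058 and Nup155 at chr15:8117242-8117331 (plus strand, 46.7% GC each).
Pom121: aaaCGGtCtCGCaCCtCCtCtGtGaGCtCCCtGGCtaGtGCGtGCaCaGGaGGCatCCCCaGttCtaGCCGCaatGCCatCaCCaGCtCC
Nup35: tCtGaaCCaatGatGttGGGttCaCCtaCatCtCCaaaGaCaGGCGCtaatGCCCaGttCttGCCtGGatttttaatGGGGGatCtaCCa
Nup43: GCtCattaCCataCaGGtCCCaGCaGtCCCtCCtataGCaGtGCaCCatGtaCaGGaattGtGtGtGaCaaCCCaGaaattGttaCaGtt
Nup155: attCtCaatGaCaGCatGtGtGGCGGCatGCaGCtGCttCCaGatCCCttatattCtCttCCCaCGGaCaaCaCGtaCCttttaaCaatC

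FG repeats were counted in the coding sequences as codon pairs for phenylalanine and glycine, TTTGGN or TTCGGN in frame. At least 5 pairs were found in 11 of 33 members (33.3%) and in 919 of 21523 protein-coding genes (4.27%), with a median of 3 pairs in members and 1 in all. The highest counts were 46 in Nup214, 41 in Nup98, which binds export factors and is made as a precursor with Nup96, 29 in the basket protein Nup153, 24 in Pom121 and 20 in Ranbp2, the cytoplasmic filament. Of the 3 members called higher at 18 against 10 cycles, Pom121 and Nup62 (6 pairs) are among the 11, and Rae1 (3 pairs) is not. Of the 5 called lower none is, with 4 pairs in Nup205, 3 in Nup35 and 1 each in Nup43, Nup155 and Aaas. The cut of 5 pairs makes no allowance for length, and the 11 include the transmembrane Ndc1 and Nup210. Nup35 had its 3 pairs in 326 codons, denser than Ndc1 (5 in 674), Ranbp2 (20 in 3054) and Nup210 (5 in 1887). Nup62 was denser than Nup35, with 6 in 527. Per codon, Nup205, Nup43, Nup155 and Aaas lay below each of the 11. Whether the repeats bear on the calls was not tested. Nup98 had 626 and 479 CPM at 10 cycles and 343 and 384 at 18 cycles, and Nup214 589 and 469 and 379.8 and 398, and neither was called (-0.33 ± 0.21 and -0.17 ± 0.20, log2). The windows of 90 coding bases with the most pairs show how closely the repeats follow each other, with the codon pairs in capitals. They come from GENCODE M21 transcripts on GRCm38, each within 1 coding exon, Nup62 at chr7:44828563-44828652 (plus strand, 2 pairs, from the start codon), Pom121 at chr5:135381290-135381379 (minus strand, 4 pairs), Nup98 at chr7:102194959-102195048 (minus strand, 4 pairs) and Nup214 at chr2:32034558-32034647 (plus strand, 5 pairs).
Nup62: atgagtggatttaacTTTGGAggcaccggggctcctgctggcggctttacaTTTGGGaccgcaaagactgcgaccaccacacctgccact
Pom121: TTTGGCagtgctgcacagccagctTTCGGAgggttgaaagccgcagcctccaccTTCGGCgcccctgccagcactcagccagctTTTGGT
Nup98: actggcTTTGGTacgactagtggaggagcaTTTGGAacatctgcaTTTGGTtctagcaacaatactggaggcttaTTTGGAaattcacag
Nup214: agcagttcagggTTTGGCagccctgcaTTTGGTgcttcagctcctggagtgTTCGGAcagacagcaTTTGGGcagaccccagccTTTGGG

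The 33 members lie on 14 chromosomes, with 6 on chromosome 2. The genes the comparisons turn on lie on GRCm38 at chr2:80617236-80658906 (Nup35), chr10:7667503-7678881 (Nup43), chr15:8109273-8161247 (Nup155), chr6:35177421-35247596 (Nup205), chr15:102338252-102350771 (Aaas), chr5:135376141-135394546 (Pom121), chr7:44816088-44830812 (Nup62) and chr2:173000117-173015739 (Rae1). Exon bases are shared with another gene in 11 members, up to 12.4% in Nup188, where reads are tallied as ambiguous under the default of HTSeq. Pom121 shares 11.9% of its exon bases with Nsun5 on the opposite strand, and Nsun5 had 2161 counts against 16758 for Pom121 over the 12 libraries. Nup35 matches Gm4353, a gene elsewhere in the genome, over 747 bases at 99.3% identity, so its level is uncertain by reads that map to both, and Gm4353 had 326 counts against 2773 for Nup35. Nup54 matches the processed pseudogene Gm15790 over 1254 bases at 98.0% identity, with 15 counts against 7427 for Nup54.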

How the data were processed

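The deposited counts are whole reads per GENCODE M21 gene, with ERCC molecules, in 12 tables, 1 per library. The submitters' processing notes name cutadapt 2.5, FastQC 0.11.8, STAR 2.7.2a, SAMtools 1.9 and HTSeq 0.9.1, and the reads were oligo-dT primed, made into Nextera libraries, mapped to mm10 and counted without strand. Lines that name no gene were left out (no feature 6.90% to 10.8% of tallied reads, ambiguous 2.64% to 4.53%).

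Genes reaching 5 counts in 2 or more libraries of a fit were tested with edgeR 4.0.16 (quasi-likelihood, R 4.3.3), with Benjamini-Hochberg adjustment over all genes tested and a threshold of 0.01. The 6 whole oocytes were 1 fit (3 groups of 2), and the 8 libraries at 18 cycles another. Size factors were median ratios over all genes or over ERCC molecules. DESeq2 1.42.0, TMM, total ERCC counts, other filters, a replicate block and leaving out each library were alternatives. The fit was also run on simulated data, but that outcome is not given and no result here rests on it. CPM used gene counts only, and sequences and overlaps came from GENCODE M21 with Python 3.11.15, pandas 2.3.3 and blastn 2.17.0. Members and lists were chosen with earlier results of these data known. Values in every library were given for the 3 highest and 3 lowest members per kilobase, and for up to 6 members called lower and 6 higher, averaging at least 50 normalized counts, in 18 against 10 cycles and in 1/8. From each transport list at most 2 called genes were named in each of these comparisons.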

Additional observations from a re-analysis of the deposited data

How the results depend on the processing

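Depth limits the low members: Nup43 had 17 and 8 counts in whole oocytes at 18 cycles, and Nup210l 2 over that group. Where 1 library was left out, the lone library of that arm was assumed to vary like the other groups, and the cause of each difference below was not tested. Of the log2 fold changes of called members, 96 kept their direction and side of the threshold with 1 library left out and 62 kept their direction only, and under DESeq2, TMM, no filter and the replicate block all 24 kept both.

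Members called lower at 18 against 10 cycles (5) were 8 by DESeq2, 8 by TMM, 10 with at least 10 counts in every library and 2 with only the 2 groups compared in the fit, beside 2381, 2158, 2042 of 9073 and 1342 of all genes (1898 in the fit reported), and 2 to 5 with 1 library left out (688 to 1827 of all genes). Higher (3) were 5 by DESeq2 and 5 with no filter, beside 2708 and 2703 of all genes (2155), and 0 to 3 with 1 library left out (928 to 2180). At 18 against 14 cycles, lower (5) were 8 with the strict filter and 3 with only the 2 groups, beside 2011 of 9073 and 1332 of all genes (1873), and 1 to 5 with 1 library left out (858 to 1802), and higher (4) were 1 to 4 (957 to 2156; 2199 in the fit reported). In 1/8, lower (2) were 1 with only the 2 groups, 0 against the 10-cycle oocytes and 0 to 2 with 1 library left out, beside 1022, 0 and 689 to 1189 of all genes (1285), and higher (5) were 3, 0 and 1 to 4, beside 841, 0 and 287 to 957 (1044). In 1/2, 1 member was lower and 3 higher against the 10-cycle oocytes (1062 and 1655 of all genes), and in 1/4, 1 was higher against them (1026) and 1 by DESeq2 (69). With ERCC scaling, 26 lower in 1/2 became 6 to 28 with 1 library left out (1930 to 8908 of all genes), 24 higher at 18 against 10 cycles became 13 to 29 (4526 to 9391), and 25 at 18 against 14 cycles became 12 to 28 (5449 to 9585). Scaling by total ERCC counts gave 20 higher at 18 against 10 cycles and 22 at 18 against 14 cycles, beside 6860 and 6626 of all genes. In 1/2, 1/4 and 1/8 it gave 25, 29 and 31 lower, beside 7455, 10463 and 12774 of all genes. Whole oocytes at 18 cycles held 1611 and 1474 ERCC counts, on 30 molecules in each library. Against the 10-cycle oocytes none of the 7 members called in 1/8 was called, and the log2 fold changes of Aaas (-0.14 ± 0.29) and Nup62 (0.0127 ± 0.23) had the other sign, each within its SE of 0. Fewer genes entered the strict filter, and Nup43 was not tested under it.

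Replicate numbers were shared by the groups, but deviations of same-numbered libraries correlated between -0.15 and 0.14, so the numbers were not taken as pairs, though the fraction libraries come from 2 oocytes and the labels do not say which share one. With the replicate block 7 members were lower and 4 higher at 18 against 10 cycles, 5 and 4 at 18 against 14 cycles, and 2 and 5 in 1/8, beside 2107 and 2272, 2111 and 2268, and 1476 and 1165 of all genes. With ERCC scaling the block gave 23 and 24 higher in the cycle comparisons and 27, 30 and 31 lower in 1/2, 1/4 and 1/8, beside 7721 and 7721 higher and 8366, 10166 and 12684 lower of all genes.

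The members' mean summed CPM at 10, 14 and 18 cycles was 4564, 4492 and 3957, or 4068, 3999.96 and 3602 with counts on no gene added to the total, and 3482, 3385 and 3204 without the 2 members of highest CPM, a choice made after seeing the data. In 1/2, 1/4 and 1/8 it was 3896, 4155 and 4571, or 3600.2, 3823 and 4185, and 3114, 3232 and 3549.6.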
